A study of Mus musculus with 6 samples.

Results

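The 44 genes described here mark macrophages and monocytes and the states these cells take in injured tissue. They were selected by symbol from the gene-level count table of whole mouse kidneys, and all 44 were found among its 34714 rows. The genes fall into 9 roles: 3 code for the macrophage growth factors and their receptor, 9 mark macrophages and the myeloid lineage in general, 5 are Fc receptors and their adaptors, 6 mark monocytes, 6 mark resident macrophages, 6 mark lipid- or scar-associated macrophages, 3 act in the uptake of dead cells, 5 are scavenger or pattern receptors, and Arg1 stands for alternative activation. The tested kidneys came from male mice that lack the microRNA gene miR-92b in all cells (miR-92b-/-, line C57BL/6JGpt- Mir-92bem22Cd549/Gpt, labelled M92KO and here KO), and their controls were male C57BL/6J mice (labelled WT). Mice of both genotypes were 8 weeks old when the left ureter was tied off (unilateral ureteral obstruction, UUO, a model of kidney fibrosis), and the kidneys were taken 10 days later. Each genotype has 3 libraries, all from obstructed kidneys; sham-operated kidneys were not analysed here, so no value below speaks of the response to obstruction itself. The purchased knockout line also differs from the controls in substrain, so the deletion and the substrain cannot be told apart. The labels do not say that the 3 libraries of a genotype came from separate mice, and p-values then measure only the spread between these libraries. The microRNA itself is not a row of the table, so the deletion was not checked in these counts.

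Macrophages depend on the receptor CSF1R and its ligands CSF1 and IL34, which tubule and stromal cells secrete. After injury, circulating monocytes enter the kidney through the chemokine receptor CCR2 and join macrophages already living there, which carry CX3CR1 and, in some subsets, MRC1, CD163, FOLR2, LYVE1 and TIMD4. In fibrotic organs some of the recruited cells take on a lipid-handling program with TREM2, GPNMB, galectin-3, CD9 and FABP5. MicroRNAs of the miR-92 family lower the output of messenger RNAs whose 3' UTRs pair with the seed of the microRNA.

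The microRNA that the KO mice lack is shown first, with the near-identical miR-92a-3p that they keep, because both carry the same seed (bases 2 to 8, in capitals). RefSeq places mature miR-92b-3p at chr3:89227126-89227147 on the minus strand of GRCm38.p6.
mmu-miR-92b-3p: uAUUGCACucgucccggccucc
mmu-miR-92a-3p: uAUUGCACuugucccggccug
The same seed stands in miR-25-3p, miR-32-5p, miR-363-3p and miR-367-3p. In GENCODE 3' UTRs, 3 of the 43 tested members held a match to this seed (6.98%), against 13.4% of 15384 tested genes with an annotated 3' UTR. A match was GTGCAATA (the 8-base form), GTGCAAT or TGCAATA, on the transcribed strand. The 3' UTRs of the members were shorter (median 605 bases) than those of all these genes (median 1114 bases). None of the 43 held the 8-base form, which 2.65% of all these genes did. The member sites are printed 5' to 3' with the match in capitals, for Fcgr2b (chr1:170958657-170958663, minus strand), Ctss (chr3:95556245-95556251, plus strand) and Cx3cr1 (chr9:120051035-120051041, minus strand) of GRCm38. The Fcgr2b site lies in the GENCODE transcript with the longest 3' UTR, beyond the end of the gene that RefSeq annotates.
Fcgr2b: ccagaacaaTGCAATAgattgttaa
Ctss: taatttgccTGCAATAtccagagga
Cx3cr1: accagattaGTGCAATtacaaaggg
Their log2 fold changes, KO over WT, were 0.05 for Fcgr2b, 0.20 for Ctss and 0.09 for Cx3cr1, and the KO and WT libraries overlapped for each. The median log2 fold change was 0.09 over these 3 members and 0.18 over the tested members with no match, against 0.08 and 0.00 over all tested genes with and without one. A match is a string in the sequence and does not show that the microRNA binds there.

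The KO libraries held 44476507, 46804547 and 50769801 counts and the WT libraries 38738204, 47893534 and 51932509 counts. Levels are given in CPM (counts set against library size, which was scaled by edgeR's TMM factors), and 18927 genes passed the filter on low counts. The counts came from whole kidney: the 8 proximal tubule markers summed to 3825, 2542 and 1167 CPM in KO libraries 1, 2 and 3, against 2156, 2658 and 5096 CPM in WT libraries 1, 2 and 3. KO library 3 stood apart: the 9 distal tubule and collecting duct markers summed to 4968, 3496 and 977 CPM in the KO libraries and 1872, 5041 and 3766 CPM in the WT libraries, so it was lowest there, with WT library 1 next. The 8 fibroblast markers summed to 2428, 4554 and 6987 CPM in the KO libraries and 3739, 2473 and 1776 CPM in the WT libraries, with KO library 3 highest. The 6 core macrophage markers (Adgre1, Csf1r, Mpeg1, Fcgr1, Spi1 and Tyrobp) were all present, with sums of 664, 779 and 623 CPM in KO libraries and 526, 609 and 591 CPM in WT libraries. A second value without KO library 3 is given for each member whose log2 fold change turns sign without it. In whole tissue, fewer cells of a type and less RNA per cell cannot be told apart.

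None of the 43 tested members differed between KO and WT kidneys at an adjusted p under 0.05 (edgeR's quasi-likelihood test, Benjamini-Hochberg adjustment over all 18927 genes), and no gene in the table did (0%). At an unadjusted p under 0.05, 4 members were higher in KO kidneys (Cmklr1, Olr1, Axl and Lyz2), against 829 of all tested genes (4.38%), and 1 was lower (Lgals3), against 666 of all genes (3.52%). DESeq2's Wald test called 62 genes (0.328%), among them 2 members: Olr1 (adjusted p = 0.048) and Cmklr1 (adjusted p = 0.025). All 3 KO libraries lay above all 3 WT libraries for 6 members (Adgre1, Lyz2, Laptm5, Axl, Olr1 and Cmklr1), against 8.95% of all tested genes. No member had all 3 KO libraries below all 3 WT libraries, which 7.2% of all genes did. The remaining 37 tested members overlapped between genotypes. On GRCm38.p6 the genes of the members named here lie at chr5:113612355-113650475 for Cmklr1, chr6:129479150-129507350 for Olr1, chr7:25756500-25788924 for Axl, chr10:117277541-117282272 for Lyz2, chr17:57358581-57483529 for Adgre1, chr4:130912890-130936148 for Laptm5 and chr14:47373860-47386167 for Lgals3. Olr1, Axl, Cmklr1 and Lyz2 are read from the minus strand and the other 3 from the plus strand. Positive log2 fold changes were measured for 32 of the 43 members, against 47.7% of all genes, and the median was 0.16 for the members and -0.02 for all genes. That count rests on KO library 3: without it, 18 of the 43 were above 0 and the members' median was -0.03. With KO library 3 and WT library 1 both left out, 23 of the 43 were above 0 and the median was 0.04. Marco, a scavenger receptor of tissue macrophages, was too low to test, with 0.205, 0.172 and 0.616 CPM in KO libraries and 0.329, 0.142 and 0.170 CPM in WT libraries.

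**Figure D1:**
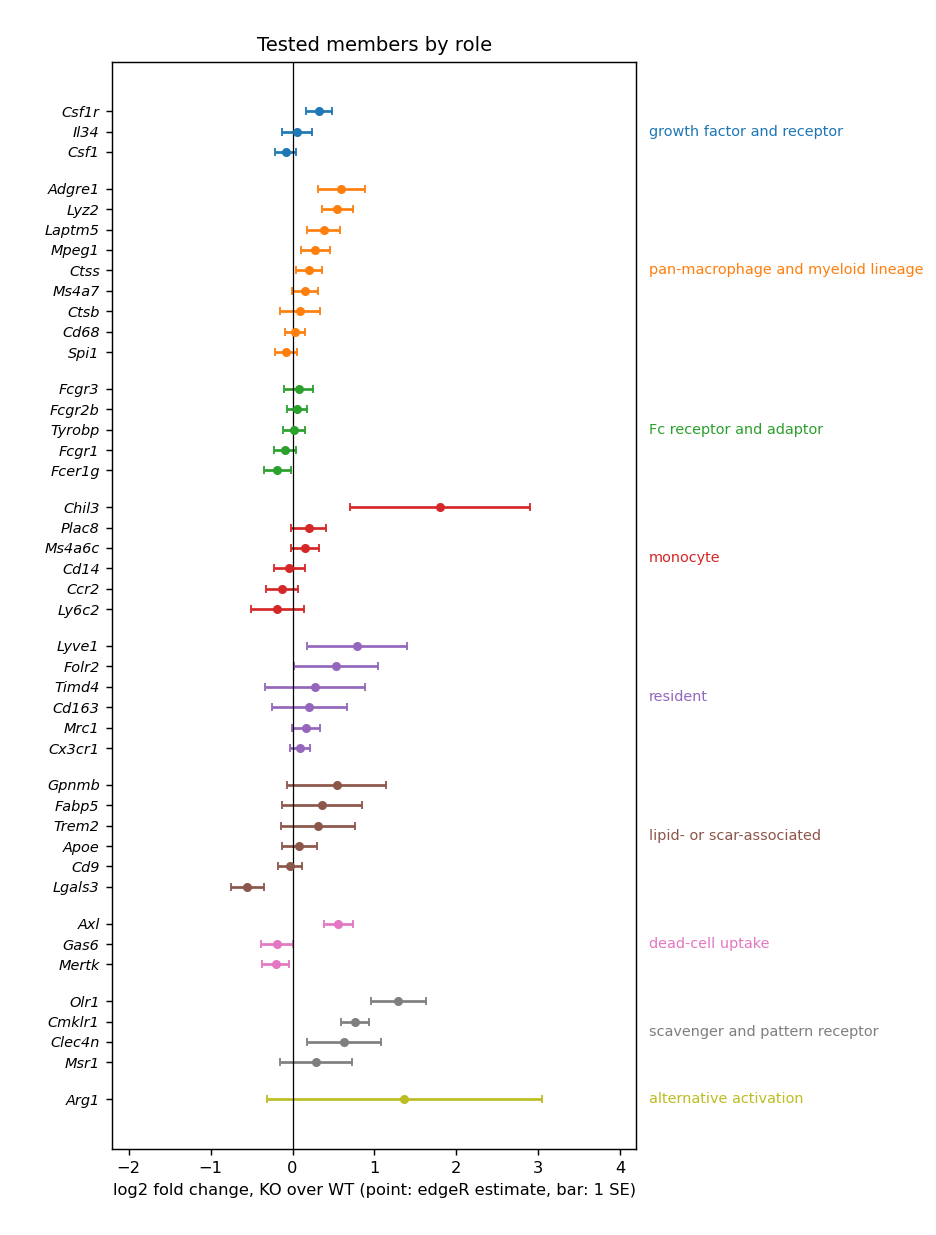
Log2 fold change of each of the 43 tested members, KO over WT, with edgeR's estimate as a point and 1 standard error as a bar, grouped by role. Cmklr1, Olr1, Axl and Lyz2 lie well to the right of 0, Lgals3 lies to the left, and the widest bars belong to Arg1 and Chil3.

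The macrophage growth factors overlapped between genotypes, and none of the 3 genes of this group had an unadjusted p under 0.05. Csf1r, the receptor that macrophages need to survive, had 192, 228 and 175 CPM in KO libraries, against 151, 176 and 150.4 CPM in WT libraries. The lowest KO library lay just under the highest WT library, and the log2 fold change, here and below with its standard error, was 0.32 ± 0.16 (edgeR, unadjusted p = 0.0775, adjusted p = 0.627). Csf1, one ligand, had 104, 116 and 122 CPM in KO libraries and 122, 129 and 113 CPM in WT libraries. Il34, the other ligand and a product of tubule cells, had 120.1, 128 and 119 CPM in KO libraries and 86.9, 126 and 140.3 CPM in WT libraries. Both ligands overlapped between genotypes, with log2 fold changes of -0.09 ± 0.13 for Csf1 and 0.06 ± 0.19 for Il34.

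Among the 9 general macrophage and myeloid genes, Lyz2, Adgre1 and Laptm5 were higher in all 3 KO libraries than in any WT library, and Lyz2 alone of the 9 had an unadjusted p under 0.05. Lyz2, which codes for the lysozyme of macrophages and neutrophils, had 785, 930.1 and 1033 CPM in KO libraries, against 567, 657 and 658 CPM in WT libraries. Every KO library lay above the highest WT library, and the log2 fold change was 0.55 ± 0.19 (edgeR, unadjusted p = 0.0202, adjusted p = 0.627). Of its transcript's 50-base windows, 15.4% were also found in Lyz1, which averaged 9.41 ± 2.73 (SD, n = 3) CPM in KO and 7.42 ± 0.990 (SD, n = 3) CPM in WT libraries. Adgre1, which codes for the surface marker F4/80, had 57.4, 83.8 and 59.4 CPM in KO libraries, against 26.3, 50.8 and 55.7 CPM in WT libraries. The gap between groups was narrow and WT library 1 was the low one: the log2 fold change was 0.59 ± 0.29 (edgeR, unadjusted p = 0.0716), and 0.33 without WT library 1. Laptm5, a lysosomal membrane protein of blood cells, had 176, 182 and 163 CPM in KO libraries, against 94.9, 148 and 157 CPM in WT libraries. WT library 1 was again lowest, and the log2 fold change was 0.38 ± 0.20 (edgeR, unadjusted p = 0.0961), and 0.19 without that library.

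The other 6 genes of this group overlapped between genotypes. Mpeg1, a pore-forming protein of phagosomes, had 303, 352 and 268 CPM in KO libraries and 221, 272 and 266 CPM in WT libraries, with a log2 fold change of 0.28 ± 0.17. Ctss, a cathepsin used in antigen presentation, had a log2 fold change of 0.20 ± 0.16, and Ctsb, a cathepsin of many cell types, one of 0.09 ± 0.24 (-0.075 without KO library 3). Ms4a7, a membrane protein of mature macrophages, was at 0.15 ± 0.16, Cd68, a lysosomal marker of phagocytes, at 0.03 ± 0.12 (-0.013 without KO library 3), and Spi1, the gene of the myeloid transcription factor PU.1, at -0.08 ± 0.13. The mean log2 CPM over the 9 genes was 7.12, 7.29 and 7.22 in the KO libraries, against 6.79, 6.99 and 7.09 in the WT libraries. The libraries of the 2 genotypes did not overlap in this mean, which was 0.25 higher in KO kidneys. The gap was narrow, from 7.09 in WT library 3 to 7.12 in KO library 1, and the mean includes Lyz2, Adgre1 and Laptm5. The same mean overlapped between genotypes for each of the other roles. The plasma cell gene Jchain was also higher in every KO library, at 88.2, 108 and 53.4 CPM in KO libraries and 5.29, 6.72 and 3.55 CPM in WT libraries, while the summed B and plasma cell markers ranged from 60.4 to 119.9 CPM in KO and from 12.6 to 16.3 CPM in WT libraries. Of the 6 B and plasma cell markers, Jchain alone did not overlap between genotypes. The part of other immune cells in these values was not tested.

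**Figure D2:**
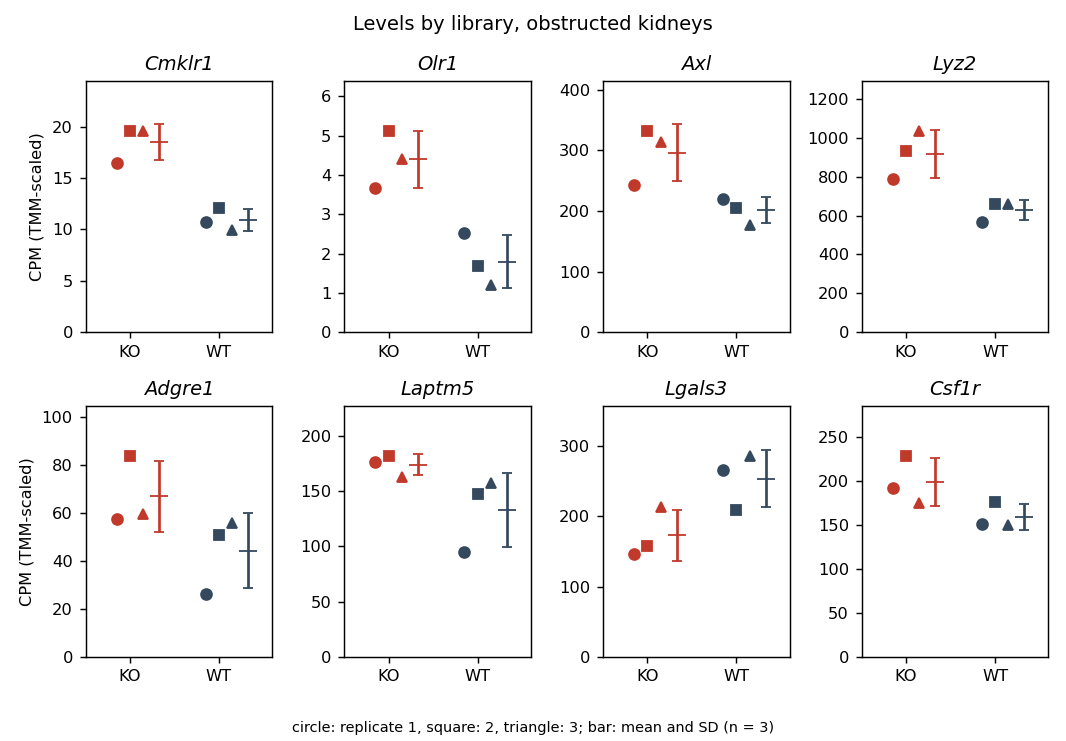
CPM of 8 members in each library, KO left of WT, with circles, squares and triangles for libraries 1, 2 and 3 and bars for the mean and SD (n = 3 each). The KO symbols lie above all WT symbols for Cmklr1, Olr1, Axl, Lyz2, Adgre1 and Laptm5, while those of Lgals3 and Csf1r overlap.

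The 5 Fc receptors and adaptors overlapped between genotypes, with log2 fold changes from -0.19 to 0.07 and no unadjusted p under 0.05. Fcer1g and Tyrobp, the signalling adaptors that pair with many myeloid receptors, had log2 fold changes of -0.19 ± 0.17 for Fcer1g and 0.02 ± 0.13 for Tyrobp, the second of which was -0.051 without KO library 3. Tyrobp had 50.0, 54.1 and 60.2 CPM in KO libraries and 57.1, 48.2 and 56.7 CPM in WT libraries, which overlapped throughout. The high-affinity IgG receptor Fcgr1 was at -0.09 ± 0.13, the activating receptor Fcgr3 at 0.07 ± 0.17 (-0.12 without KO library 3) and the inhibitory receptor Fcgr2b at 0.05 ± 0.12. Fcgr2b and Fcgr3 resemble each other: 12.8% of the 50-base windows of Fcgr3 and 7.44% of those of Fcgr2b were found in another gene.

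The monocyte genes were split, 3 above 0 and 3 below. Their median was 0.06, and none had an unadjusted p under 0.05. Ccr2, the receptor that brings monocytes out of the blood, had 137, 119 and 89.2 CPM in KO libraries and 102, 135 and 139.6 CPM in WT libraries. KO library 3 was the lowest of the 6, the groups overlapped, and the log2 fold change of -0.13 ± 0.20 was 0.022 without that library. Ly6c2, the marker of inflammatory monocytes, had 4.72, 5.0 and 3.14 CPM in KO libraries and 3.15, 5.42 and 6.06 CPM in WT libraries. Here KO library 3 and WT library 1 were the low ones, the log2 fold change was -0.19 ± 0.32, and 33.0% of the 50-base windows of Ly6c2 also lie in other genes, among them the endothelial gene Ly6c1. Ly6c1 had 46.6, 62.7 and 77.6 CPM in KO libraries and 65.8, 53.7 and 67.9 CPM in WT libraries.

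Plac8, a protein of monocytes and other leukocytes, had 77.0, 86.5 and 130.3 CPM in KO libraries and 90.5, 72.9 and 92.9 CPM in WT libraries, so its log2 fold change of 0.20 ± 0.21 rested on KO library 3 and was -0.06 without it. Ms4a6c, a membrane protein of monocytes, had 40.5, 44.4 and 43.2 CPM in KO libraries and 29.6, 44.9 and 40.9 CPM in WT libraries. The groups overlapped, WT library 1 was lowest, and the log2 fold change was 0.15 ± 0.17 (-0.01 without that library). Of the 50-base windows of Ms4a6c, 11.3% also lie in other genes, among them Ms4a6b. Ms4a6b had 27.8, 32.6 and 32.7 CPM in KO libraries and 18.9, 27.6 and 23.1 CPM in WT libraries, apart by a narrow gap. Chil3, a chitinase-like protein of monocytes and alternatively activated macrophages, had 0.388, 0.301 and 3.69 CPM in KO libraries and 0.894, 0.101 and 0.277 CPM in WT libraries. All 6 libraries held few reads of it (5 to 186 counts), KO library 3 was the high one, and the log2 fold change of 1.80 ± 1.10 was -0.28 without it. Cd14, the coreceptor for bacterial lipopolysaccharide, was at -0.04 ± 0.19 (0.010 without KO library 3), with 119, 106 and 102 CPM in KO libraries and 88.5, 106 and 142 CPM in WT libraries.

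All 6 resident macrophage genes had log2 fold changes above 0, from 0.09 to 0.79 with a median of 0.24, but none had an unadjusted p under 0.05 and the genotypes overlapped for each. With the trend on transcript length removed, Cx3cr1 was at -0.0086. The size of these values depended on single libraries: the median was -0.02 without KO library 3 and 0.48 without KO library 1. It was 0.075 without WT library 3 and 0.56 without WT library 2. Cx3cr1, the fractalkine receptor, had 55.3, 62.6 and 51.9 CPM in KO libraries and 53.4, 54.5 and 51.3 CPM in WT libraries, with a log2 fold change of 0.09 ± 0.12. Mrc1, the mannose receptor CD206, had 87.4, 110.2 and 119 CPM in KO libraries and 106, 98.6 and 78.4 CPM in WT libraries, with a log2 fold change of 0.16 ± 0.17. For both genes the SD of the KO libraries was wider than the gap between the means of the genotypes.

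Lyve1, a hyaluronan receptor of some resident macrophages and of lymphatic vessels, had 1.62, 1.35 and 5.38 CPM in KO libraries and 1.43, 2.51 and 0.893 CPM in WT libraries. KO library 3 alone stood out, and the log2 fold change of 0.79 ± 0.61 was -0.12 without it. The 5 lymphatic endothelium markers summed to 94.2, 105 and 125 CPM in KO libraries and 92.6, 88.8 and 75.9 CPM in WT libraries, higher in every KO library. Pdpn alone carried this: without it the sums were 26.5, 38.6 and 40.2 CPM in KO libraries and 34.2, 30.2 and 22.6 CPM in WT libraries, which overlapped. The part of lymphatic vessels in the Lyve1 value was not tested. Folr2, a folate receptor of resident macrophages, had 2.71, 1.74 and 5.94 CPM in KO libraries and 3.29, 2.59 and 1.32 CPM in WT libraries, with a log2 fold change of 0.53 ± 0.52 that was -0.11 without KO library 3. Cd163, the haemoglobin scavenger receptor, had 4.63, 3.74 and 5.18 CPM in KO libraries and 4.78, 5.52 and 1.47 CPM in WT libraries. WT library 3 was the low one, and the log2 fold change of 0.20 ± 0.46 was -0.19 without it. Timd4, a receptor for phosphatidylserine, was barely detected, at 0.0912, 0.344 and 0.437 CPM in KO libraries and 0.188, 0.364 and 0.170 CPM in WT libraries (4 to 22 counts). Its log2 fold change of 0.27 ± 0.61 was -0.15 without KO library 3.

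The lipid- or scar-associated genes did not share a direction. Lgals3 was lower in KO kidneys at an unadjusted p under 0.05, 4 of the other 5 were above 0, and the median log2 fold change over the 6 was 0.20 with all libraries and -0.35 without KO library 3. Lgals3, which codes for galectin-3 and is also made by tubule cells, had 146, 158 and 214 CPM in KO libraries, against 266, 209 and 286 CPM in WT libraries. KO library 3 lay just above the lowest WT library and the other KO libraries lay below all WT libraries. The log2 fold change was -0.55 ± 0.20 (edgeR, unadjusted p = 0.0257, adjusted p = 0.627), and -0.73 without KO library 3. The 7 injured tubule markers summed to 30216, 25064 and 27014 CPM in KO libraries and 20929.7, 25204 and 34246 CPM in WT libraries, which overlapped, and the part of tubule cells in the Lgals3 value was not tested.

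Trem2, Gpnmb and Fabp5 were highest in the same libraries, 1 of each genotype. Gpnmb, a glycoprotein of lipid-laden macrophages, had 4.42, 5.71 and 18.7 CPM in KO libraries and 11.0, 4.92 and 4.02 CPM in WT libraries. KO library 3 and WT library 1 were the high ones, and the log2 fold change of 0.54 ± 0.61 was -0.39 without KO library 3. Trem2, the lipid-sensing receptor, had 9.99, 10.2 and 30.9 CPM in KO libraries and 17.5, 12.9 and 10.8 CPM in WT libraries, with a log2 fold change of 0.31 ± 0.45 that was -0.45 without KO library 3. Fabp5, a fatty acid carrier, had 15.7, 12.3 and 39.4 CPM in KO libraries and 26.6, 10.6 and 15.3 CPM in WT libraries, with a log2 fold change of 0.36 ± 0.49 that was -0.32 without KO library 3. The same KO library and the same WT library were thus highest for each of these 3 genes. Apoe, the lipid carrier apolipoprotein E, had 1209, 1389 and 1576 CPM in KO libraries and 1508, 1305 and 1132 CPM in WT libraries. Cd9, a tetraspanin of many cell types, had 255, 259 and 263 CPM in KO libraries and 245, 257 and 293 CPM in WT libraries. Neither separated by genotype, with log2 fold changes of 0.08 ± 0.21 for Apoe (-0.018 without KO library 3) and -0.03 ± 0.14 for Cd9.

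**Figure D3:**
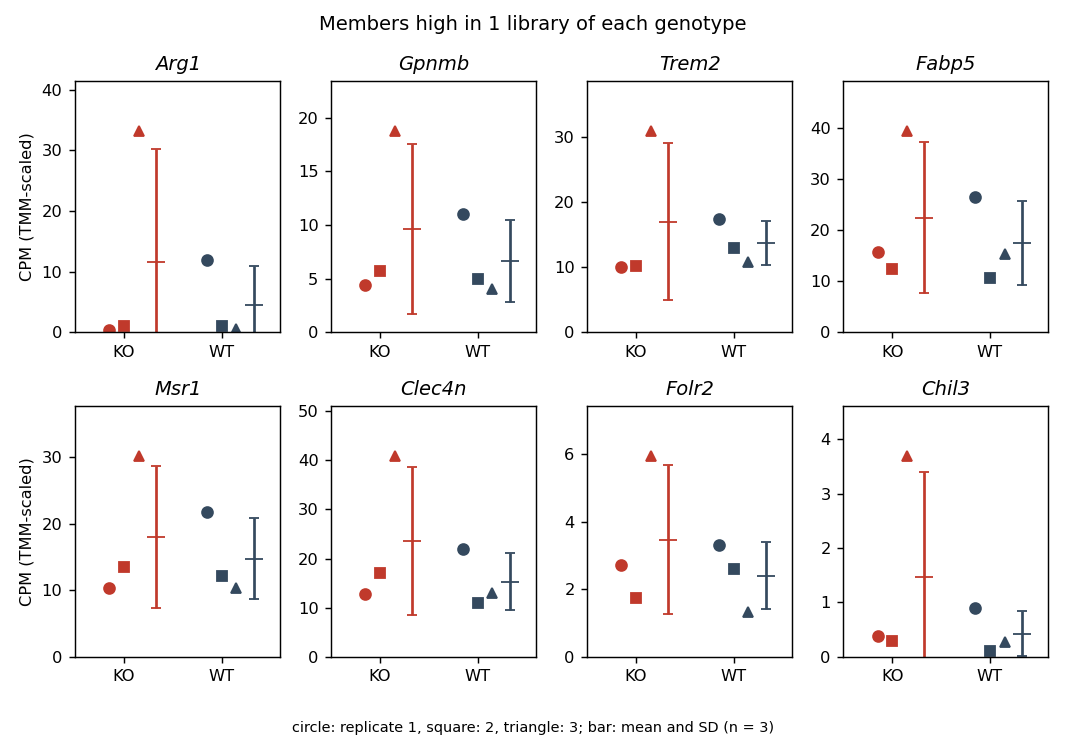
CPM of 8 members in each library, KO left of WT, with the mean and SD (n = 3 each). The members shown were selected because these 2 libraries were at least 1.2 times the next library of their genotype. By that selection, in every panel KO library 3 (red triangle) is the highest KO value and WT library 1 (blue circle) is the highest WT value.

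Of the 3 dead-cell uptake genes, Axl was higher in every KO library and its partners were not. Axl, a receptor tyrosine kinase that binds dying cells through GAS6, had 243, 332 and 313 CPM in KO libraries, against 220.3, 205 and 178 CPM in WT libraries. The lowest KO library was above the highest WT library, and the log2 fold change was 0.56 ± 0.18 (edgeR, unadjusted p = 0.0139, adjusted p = 0.627). Leaving out single libraries moved it between 0.46 and 0.68. Fibroblasts also express Axl. The log2 fold changes of their 8 markers were all above 0 (median 0.77), but each marker overlapped between genotypes. The marker sums overlapped as well, at 2428, 4554 and 6987 CPM in KO libraries and 3739, 2473 and 1776 CPM in WT libraries. The part of fibroblasts in the Axl value was not tested. Gas6, the bridging ligand, had 438, 399 and 325 CPM in KO libraries and 375, 419 and 531 CPM in WT libraries, and Mertk, the related receptor of macrophages, had 56.5, 64.3 and 62.9 CPM in KO libraries and 83.8, 71.8 and 55.8 CPM in WT libraries. Both overlapped between genotypes, with log2 fold changes of -0.19 ± 0.20 for Gas6 and -0.20 ± 0.17 for Mertk.

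The scavenger and pattern receptors held the members with the lowest p-values. Cmklr1, the receptor for the chemoattractant chemerin, had 16.4, 19.5 and 19.5 CPM in KO libraries, against 10.8, 12.1 and 9.89 CPM in WT libraries. The groups were well apart, and the log2 fold change was 0.76 ± 0.17 (edgeR, unadjusted p = 0.00191, adjusted p = 0.627). It lay between 0.66 and 0.85 under the 17 alternatives tried. Olr1, the receptor for oxidised low-density lipoprotein, had 3.67, 5.11 and 4.41 CPM in KO libraries, against 2.52, 1.68 and 1.19 CPM in WT libraries. It was the less abundant of the pair (56 to 238 counts a library), again with no overlap, and the log2 fold change was 1.29 ± 0.34 (edgeR, unadjusted p = 0.00511, adjusted p = 0.627). Its range over the alternatives was 1.07 to 1.61. The adjusted p over the alternatives ran from 0.025 to 0.971 for Cmklr1 and from 0.048 to 0.971 for Olr1, and in both cases the lowest was from DESeq2. Endothelial cells express Olr1 as well; the 6 blood endothelium markers summed to 248, 397 and 677 CPM in KO libraries and 468, 276 and 284 CPM in WT libraries, which overlapped.

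Msr1 and Clec4n were highest in the same libraries as Trem2 instead. Msr1, the class A scavenger receptor, had 10.4, 13.5 and 30.2 CPM in KO libraries and 21.7, 12.1 and 10.4 CPM in WT libraries, with a log2 fold change of 0.29 ± 0.44 that was -0.31 without KO library 3. Clec4n, the fungal pattern receptor dectin-2, had 12.9, 17.0 and 40.9 CPM in KO libraries and 21.9, 11.0 and 13.0 CPM in WT libraries, with a log2 fold change of 0.62 ± 0.45 that was -0.03 without KO library 3. Arg1, the arginase of alternatively activated macrophages, had 0.388, 1.05 and 33.1 CPM in KO libraries and 12.0, 0.991 and 0.511 CPM in WT libraries. It was near 1 CPM or below in 4 libraries and high in KO library 3 and WT library 1, so that its log2 fold change of 1.37 ± 1.68 was -2.63 without KO library 3 and 3.93 without WT library 1. Trem2, Msr1, Clec4n and Arg1 are given in every library because their values were seen to share these libraries.

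Promoters (250 bases before to 50 after the annotated start, RefSeq, GRCm38.p6) are shown for Cmklr1, Olr1 and Axl, the 3 members with the lowest p, and for Trem2, whose libraries overlapped. The capitals mark GAGGAA or its reverse complement TTCCTC, the core letters recognised by PU.1, the factor that Spi1 codes for. The windows are chr5:113643554-113643853 (minus strand) for Cmklr1, chr6:129507116-129507415 (minus strand) for Olr1, chr7:25788684-25788983 (minus strand) for Axl and chr17:48346151-48346450 (plus strand) for Trem2. The start that the RefSeq promoter table uses lies 6872 bases inside the annotated gene for Cmklr1, 185 bases inside for Olr1 and 191 bases inside for Axl, and at the first base of the gene for Trem2.
Cmklr1: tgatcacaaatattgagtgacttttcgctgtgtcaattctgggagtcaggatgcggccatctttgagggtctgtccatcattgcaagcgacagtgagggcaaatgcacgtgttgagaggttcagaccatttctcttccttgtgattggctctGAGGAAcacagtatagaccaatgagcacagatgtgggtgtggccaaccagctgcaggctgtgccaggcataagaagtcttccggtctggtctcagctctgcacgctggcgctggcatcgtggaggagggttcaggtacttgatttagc
Olr1: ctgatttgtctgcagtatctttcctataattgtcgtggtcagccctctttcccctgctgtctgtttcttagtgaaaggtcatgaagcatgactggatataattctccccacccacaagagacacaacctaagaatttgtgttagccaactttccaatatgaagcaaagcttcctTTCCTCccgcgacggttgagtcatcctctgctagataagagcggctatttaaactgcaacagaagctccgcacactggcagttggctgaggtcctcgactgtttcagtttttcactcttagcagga
Axl: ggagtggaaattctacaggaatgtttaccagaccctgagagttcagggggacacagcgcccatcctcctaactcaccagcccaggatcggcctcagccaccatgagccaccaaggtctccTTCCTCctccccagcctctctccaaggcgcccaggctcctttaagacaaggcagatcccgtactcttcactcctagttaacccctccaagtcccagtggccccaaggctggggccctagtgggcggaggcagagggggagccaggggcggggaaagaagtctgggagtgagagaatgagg
Trem2: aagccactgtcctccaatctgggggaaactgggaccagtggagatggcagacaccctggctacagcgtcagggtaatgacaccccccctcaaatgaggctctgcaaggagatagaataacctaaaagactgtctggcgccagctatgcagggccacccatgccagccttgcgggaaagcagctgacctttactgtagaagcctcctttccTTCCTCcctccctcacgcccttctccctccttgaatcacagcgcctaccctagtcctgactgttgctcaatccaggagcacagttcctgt
Each of these windows held 1 copy, beginning at -98 from the start in Cmklr1, -76 in Olr1, -130 in Axl and -40 in Trem2. Of the 32 members with a promoter in the RefSeq table, 15 (46.9%) held GAGGAA on either strand, against 28.3% of all 27024 promoters. The longer GAGGAAGT, which contains it, stood in 2 of the 32 (6.2%) and in 3.3% of all promoters. Of the members higher in every KO library, Cmklr1, Olr1, Axl and Laptm5 held a copy, as did Trem2, which overlapped. The promoter of Lyz2, also higher in every KO library, held no copy, and neither did that of Lgals3. Adgre1 had no promoter among the 32.

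Some of the other members were highest in the same libraries as Trem2. KO library 3 was the highest KO library and WT library 1 the highest WT library for 16 of the 43 tested members (37.2%), against 20.0% of all tested genes. In 8 of these 16 the margin was small, under 1.2 times the next library in at least 1 genotype (for Cd68, 1.05 times in KO and 1.02 times in WT libraries). The other 8 (Arg1, Chil3, Gpnmb, Trem2, Fabp5, Msr1, Clec4n and Folr2) were at least 1.2 times the next library in both genotypes. For Trem2 it was 3.04 times in KO and 1.36 times in WT libraries. This margin was set after the values were seen, and the share of all tested genes past it was not computed. KO library 3 was the highest KO library for 26 of the 43, against 38.9% of all genes, and WT library 1 the highest WT library for 20 of the 43, against 38.4% of all genes. The same 2 libraries had the highest summed levels of their genotype for proliferation genes, at 146, 156 and 368 CPM in KO libraries and 296, 144 and 194 CPM in WT libraries. Neutrophil markers did likewise, at 26.6, 32.9 and 63.3 CPM in KO libraries and 61.2, 38.8 and 25.3 CPM in WT libraries, although the neutrophil genes Ly6g, Camp and Ngp were too low to test. In KO library 3 this sum rose mainly with Ltf (0.707, 2.30 and 16.9 CPM in KO libraries) and Mmp9 (2.94, 4.29 and 16.3 CPM). S100a8, S100a9, Mmp8 and Retnlg were also highest there among KO libraries, at 3.06, 3.67, 1.93 and 0.556 CPM. Csf3r and Cxcr2 were instead highest in KO library 2. T and NK cell markers were lowest of their genotype in KO library 3 and WT library 1, at 45.0, 58.6 and 22.0 CPM in KO libraries and 40.2, 53.7 and 57.2 CPM in WT libraries. The summed fibroblast markers (6987 CPM in KO library 3, 3739 CPM in WT library 1) and blood endothelium markers (677 and 468 CPM) were highest there. Lowest there were the proximal tubule (1167 and 2156 CPM), distal tubule and collecting duct (977 and 1872 CPM) and dendritic cell markers (58.1 and 78.3 CPM). The core macrophage markers (623 and 526 CPM) were lowest there too. Injured tubule, adipocyte and red blood cell markers did not follow these libraries. What sets these 2 libraries apart was not tested.

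**Figure D4:**
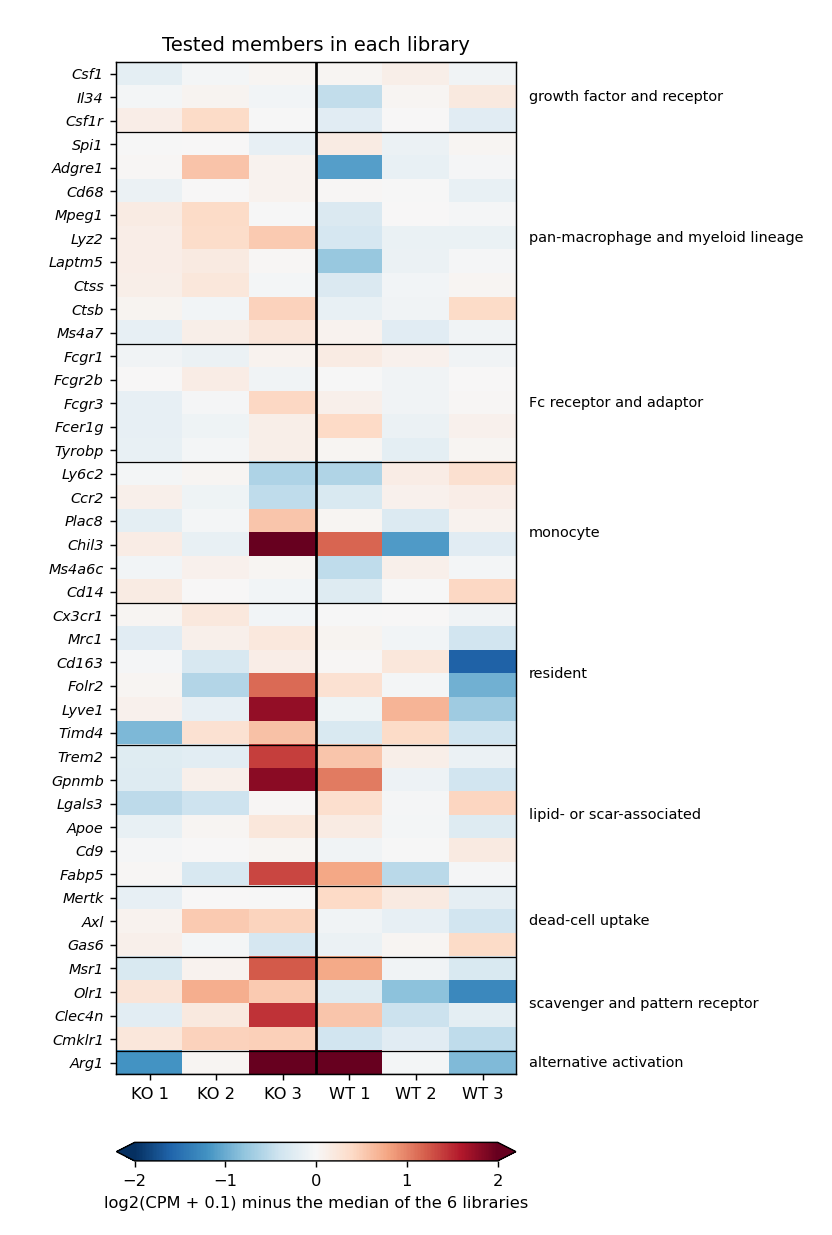
Level of each of the 43 tested members in each library, KO left of WT, as log2(CPM + 0.1) minus the median of the 6 libraries, grouped by role. Arg1, Chil3, Gpnmb, Trem2, Fabp5, Msr1 and Clec4n are red in KO library 3 and in WT library 1, and Olr1 and Cmklr1 are redder in all KO libraries than in any WT library.

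**Figure D5:**
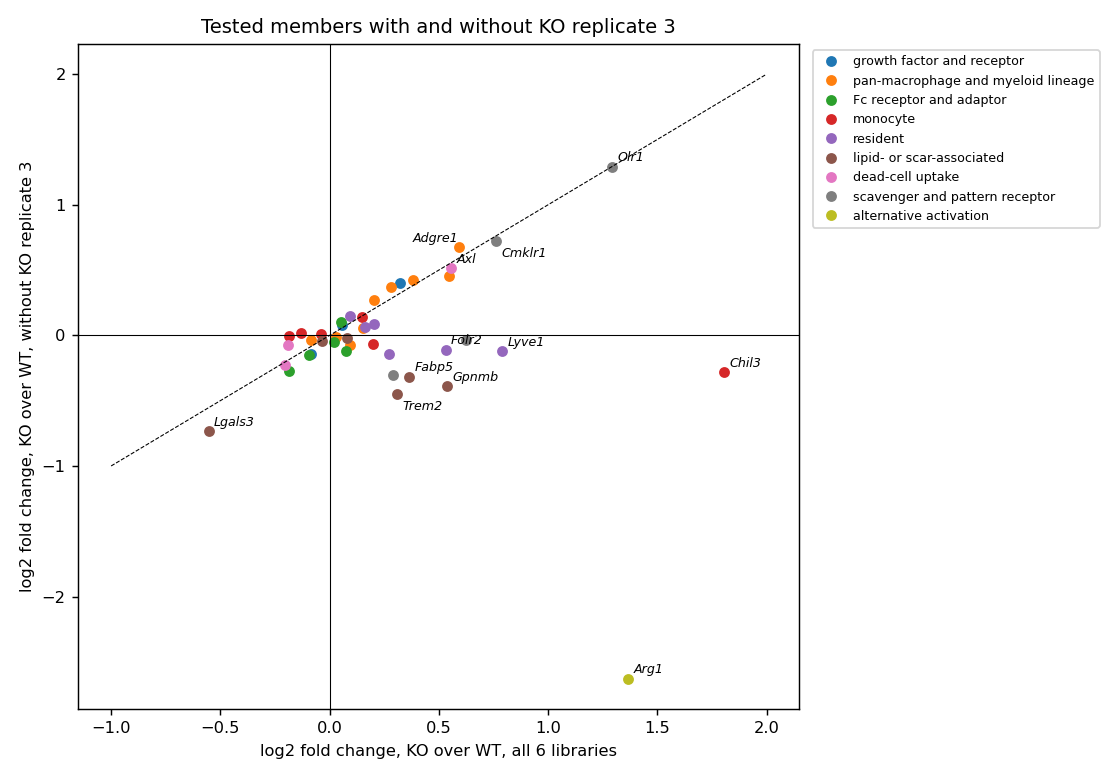
Log2 fold change of each tested member, KO over WT, with all 6 libraries on the x axis and without KO library 3 on the y axis; the dashed line marks equal values. Olr1, Cmklr1, Axl and Lgals3 stay near the line, while Arg1, Chil3, Lyve1, Gpnmb, Folr2, Fabp5 and Trem2 lie below 0 without that library.

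The members were also set against the 6 core macrophage markers of the same library, which are themselves members. The mean log2 CPM of these markers was 6.20, 6.38 and 6.20 in KO libraries and 5.98, 6.12 and 6.14 in WT libraries, 0.18 higher in KO kidneys. With this mean subtracted, Lyz2 (0.36), Olr1 (1.14) and Cmklr1 (0.58) were higher in every KO library on the log2 scale. Lgals3 was lower in every KO library (-0.74), and so was Cd9 (-0.21). Before the subtraction both overlapped between genotypes, with log2 fold changes of -0.55 for Lgals3 and -0.03 for Cd9. Because the subtracted mean was itself higher in KO kidneys, it moves the difference of every member down. The share of all genes that separate on this scale was not computed. The median difference relative to the core, KO minus WT, was -0.10 over the 6 monocyte genes, but their mean difference was 0.03, of the other sign. It was 0.10 over the resident genes (mean 0.12) and -0.08 over the lipid- or scar-associated genes (mean -0.14). With 1 core marker left out at a time, the medians ran from -0.16 to -0.012 for monocyte, from 0.04 to 0.19 for resident and from -0.13 to 0.014 for lipid- or scar-associated genes. Leaving out Adgre1 gave the high end of each range and turned the sign for the lipid- or scar-associated genes. Axl, at 0.37, overlapped between genotypes on this scale.

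Per kilobase of transcript, which allows genes to be compared, Apoe was the most abundant member, at a mean of 988 CPM per kilobase in KO and 934 in WT kidneys. Lyz2 followed, at 696 CPM per kilobase in KO and 477 in WT kidneys, then Ctsb at 256 in KO and 240.3 in WT kidneys. Of the leading members, Cmklr1 averaged 6.42 CPM per kilobase in KO and 3.78 in WT kidneys, and Olr1 1.23 in KO and 0.503 in WT kidneys. Both were below Adgre1, which averaged 20.7 CPM per kilobase in KO and 13.7 in WT kidneys.

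A further list of 52 genes linked to macrophages lay outside the 44. Not all are specific to these cells: Spp1 is also among the injured tubule markers and Csf3r among the neutrophil markers. The part of other cell types in their values was not tested. Of the 51 tested, 6 were higher in KO kidneys at an unadjusted p under 0.05, against 4.38% of all tested genes. At the same threshold 3 were lower, against 3.52% of all tested genes. None passed the adjusted test, and the median log2 fold change was 0.12, against -0.02 over all tested genes. The 3 with the lowest p are given. Itgam, the integrin CD11b, had 51.2, 59.5 and 52.3 CPM in KO libraries, against 40.2, 45.8 and 37.2 CPM in WT libraries, with a log2 fold change of 0.40 ± 0.13 and no overlap. Maf, a transcription factor of resident macrophages, had 149.7, 151 and 190.1 CPM in KO libraries, against 108, 124 and 125 CPM in WT libraries, with a log2 fold change of 0.46 ± 0.15 and no overlap. Nr4a1, an early-response factor needed for patrolling monocytes, had 12.9, 35.7 and 15.8 CPM in KO libraries, against 30.0, 60.6 and 148 CPM in WT libraries, with a log2 fold change of -1.89 ± 0.62. The Nr4a1 groups overlapped, and WT library 3 was the highest of the 6.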

How the data were processed

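Whole-kidney RNA of 6 libraries was analysed. The values are raw read counts per gene as deposited by the authors, and the total of the 6 columns was 38738204 to 51932509 counts per library. Libraries were made from total RNA with a SMARTER mRNA kit, per the labels' protocols. The builds GRCm38 and mm10 come from the submitters' processing notes; for the aligner, counter and strand setting, the sources used here give nothing. One protocol sentence calls the ligated kidneys controls without fibrosis; they were taken as obstructed from the treatment label and the column names.

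Genes were filtered with edgeR's filterByExpr, which left 18927 of 34714 rows holding 99.96% of the counts, and were scaled by TMM. The quasi-likelihood test of edgeR 4.0.16 (R 4.3.3) compared 3 KO with 3 WT libraries on the whole table, with Benjamini-Hochberg adjustment over all genes tested and calls at an adjusted p under 0.05. Replicates varied by 26.9% (edgeR's common biological coefficient of variation). On simulated counts for this comparison (18653 genes), the same fit recovered 2 of the 67 genes given a 1.5-fold change, 25 of the 67 given a 2-fold one and 60 of the 66 given a 4-fold one, and made 3 false calls. DESeq2 1.42.0, limma 3.58.1, other scalings and filters, a replicate block, a length correction and left-out libraries were the alternatives.

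Named in every library are members whose groups did not overlap or whose unadjusted p was under 0.05, and the first 3 by p of the monocyte, resident and lipid- or scar-associated groups; values of further members were added after they were seen. Members and gene lists were chosen with earlier results of these data known, so no list was tested as a set. Seed matches used, for each gene, the longest 3' UTR among its protein-coding GENCODE transcripts. The 50-base windows and transcript lengths used the longest GENCODE transcript, a protein-coding one where there was any. MicroRNAs and promoters came from RefSeq (GRCm38.p6). More than 5% of the 50-base windows of 7 members were found in another gene (Ly6c2, Chil3, Fabp5, Lyz2, Fcgr3, Ms4a6c and Fcgr2b), so their counts may be shared with near copies.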

Additional observations from a re-analysis of the deposited data

How the results depend on the processing

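Of the 43 tested members, 14 kept the sign of their log2 fold change under all 17 alternatives and 29 reversed under at least 1. No member was called by edgeR or limma under any setting; DESeq2's Wald test called 2, Olr1 and Cmklr1. The number of genes called was 0 with all libraries in edgeR, 62 with DESeq2's Wald test, 2 with limma-voom, 2 with no filter, 1 with the replicate block and 1 without both libraries numbered 3; it ranged from 0 to 1 when single libraries were left out. The replicate block changed no member's call. The correlation of deviations from the group means was -0.28, 0.18 and -0.29 for libraries numbered 1, 2 and 3, so the numbers were not taken as pairs. Over the other pairs of a KO with a WT library it ran from -0.20 to 0.37, highest for KO 3 with WT 1 (0.37) and KO 1 with WT 3 (0.29). Leaving out single libraries moved the median of the lipid- or scar-associated genes between -0.35 and 0.37. Without both libraries numbered 3, the median was -0.50 for these genes and -0.32 for resident genes, and these members reversed: Cd68 -0.062, Fcgr3 -0.12, Tyrobp -0.014, Ly6c2 0.18, Ccr2 0.11, Chil3 -0.50, Cd14 0.22, Mrc1 -0.049, Cd163 -0.30, Folr2 -0.40, Lyve1 -0.41, Timd4 -0.34, Trem2 -0.59, Gpnmb -0.65, Apoe -0.11, Cd9 0.035, Fabp5 -0.40, Gas6 0.078, Msr1 -0.50, Clec4n -0.14 and Arg1 -3.15. With KO library 3 and WT library 1 both left out, an alternative added after seeing the data, the reversals were Il34 -0.099, Spi1 0.039, Ctsb -0.18, Fcgr3 -0.075, Tyrobp -0.0090, Plac8 -0.019, Ms4a6c -0.016, Lyve1 -0.20, Timd4 -0.29, Trem2 -0.24 and Arg1 -0.060. With the length trend removed they were Ctsb -0.018, Fcgr2b -0.0043, Fcer1g 0.096, Ly6c2 0.032, Cd14 0.069, Cx3cr1 -0.0086 and Cd9 0.13. With library size alone they were Cd68 -0.0043 and Tyrobp -0.0075, and with upper-quartile factors Cd68 -0.0070 and Tyrobp -0.014. Over the single libraries left out, the log2 fold change of a reversing member ran as follows: Il34 -0.12 to 0.21, Cd68 -0.017 to 0.084, Ctsb -0.075 to 0.28, Fcgr2b -0.011 to 0.10, Fcgr3 -0.12 to 0.19, Tyrobp -0.051 to 0.083, Ly6c2 -0.42 to 0.0020, Ccr2 -0.27 to 0.022, Plac8 -0.063 to 0.34, Chil3 -0.28 to 2.95, Ms4a6c -0.0080 to 0.28, Cd14 -0.18 to 0.17, Cd163 -0.19 to 0.54, Folr2 -0.11 to 0.85, Lyve1 -0.12 to 1.26, Timd4 -0.15 to 0.71, Trem2 -0.45 to 0.58, Gpnmb -0.39 to 1.10, Apoe -0.018 to 0.19, Cd9 -0.086 to 0.049, Fabp5 -0.32 to 0.80, Msr1 -0.31 to 0.68, Clec4n -0.032 to 0.98 and Arg1 -2.63 to 3.93. The low end came from leaving out KO library 3 for Ctsb, Fcgr3, Tyrobp, Plac8, Chil3, Folr2, Lyve1, Timd4, Trem2, Gpnmb, Apoe, Fabp5, Msr1, Clec4n and Arg1. The cause of the reversals was not tested. With 3 libraries per genotype, changes of 2-fold or less were mostly not detectable: on simulated counts 25 of 67 genes given a 2-fold change were recovered.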
